A study of Phaseolus vulgaris with 6 samples.

Results

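The genes described here are the amino acid transporters and MtN21-type transporters of common bean (Phaseolus vulgaris). They are all genes of the deposited expression table whose description names an amino acid transporter, an amino acid permease, a lysine histidine transporter, MtN21 or Walls Are Thin. The rule reads no measured value, although the theme was chosen with earlier results of these data known, and 152 of the 27012 genes in the table qualified. RNA sequencing was run on the top stems of the mutant nts and of the wild type A18, with 3 samples of each genotype. Both genotypes were grown from seed in pots under the same temperature and day length. Tissue was taken at first flowering, once the mutant's stem tips had come to look different from those of the wild type. The lesion behind nts and the relation between the lines are not given in the labels, and they do not state that the 3 samples per genotype are different plants. The p-values below therefore measure only the spread between these samples, which may be technical.

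Amino acids are the main form in which plants move organic nitrogen between organs, and they cross membranes only through carriers. Amino acid permeases and lysine histidine transporters are proton-coupled importers, known from Arabidopsis for phloem loading and for uptake into root and leaf cells. The MtN21 proteins take their name from a nodulin of Medicago truncatula and belong to the EamA drug and metabolite transporter superfamily. Their Arabidopsis counterparts, the UMAMIT proteins, let amino acids pass in either direction and are best known for releasing them from cells. Walls Are Thin 1 is an MtN21 protein that in Arabidopsis exports auxin from the vacuole and is needed for the thick secondary walls of stem fibres.

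The 152 genes fell into 6 groups by description. MtN21 proteins were the largest with 63 genes, followed by 40 transmembrane amino acid transporters without a more exact name and 23 amino acid permeases. The others were 16 cationic and other amino acid transporters, 7 lysine histidine transporters and 3 Walls Are Thin 1 genes. Of the 23 permeases, 5 are described only as family proteins and carry a polyamine transport term in the table, so the word permease covers more than amino acid import there. Of the 63 MtN21 genes, 9 carry an amino acid export term and 2 a UDP-xylose transport term. The table's KEGG identifier gives 37 MtN21 genes and the 3 Walls Are Thin 1 genes the entry of fructose-bisphosphate aldolase, which does not match their descriptions, and it was not used.

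Across libraries, total counts lay between 46361548 and 61113606 in nts and between 40728394 and 62695701 in A18. A principal component analysis of log2 CPM, which sets counts against library size, put 54.8% of the variance on component 1, where the nts libraries stood at 122, 102 and 40.3, and the A18 libraries stood at -112, -36.1 and -116 (replicates 1, 2 and 3 of each). Replicate 3 of nts and replicate 2 of A18 thus lay between the other libraries of the 2 genotypes. The spread between replicates was wide, with a common biological coefficient of variation of 0.487, and after Benjamini-Hochberg adjustment 20 of the 21126 genes tested had a p under 0.05, the rule for a call. The deposited expression level is FPKM, which counts fragments relative to the length of the transcript and the depth of the library. Of the shoot meristem and boundary markers, 16 of 26 had counts, with summed levels of 629 to 1048 FPKM in nts and 874 to 960 FPKM in A18. The remaining 10, all but 1 of them WUSCHEL related homeobox genes, were at 0 in all 6 libraries.

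Transporters of these kinds took a smaller share of the sequenced RNA in nts stems than in A18 stems, and most of the difference lay in a few abundant MtN21 and Walls Are Thin 1 genes. Summed over the 152 genes, the level was 2080, 2226 and 2837 FPKM in nts replicates 1, 2 and 3. It was 5095, 3905 and 4925 FPKM in A18 replicates 1, 2 and 3. The 2 sets did not overlap, and the means were 2381 ± 401 FPKM in nts and 4642 ± 643 FPKM in A18 (SD, n = 3 each), a ratio of 0.513. As a share of all counts the 152 genes took 0.298%, 0.319% and 0.413% in nts and 0.694%, 0.572% and 0.689% in A18. In these stem samples, fewer cells of a type and less RNA per cell cannot be told apart.

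The MtN21 genes made up 63.3% of the net difference in summed FPKM, the 3 Walls Are Thin 1 genes 20.2% and the transmembrane amino acid transporters 12.1%. Permeases added 2.27%, cationic and other transporters 2.11% and lysine histidine transporters 0.00482%. The 5 genes with the most negative difference, 3 MtN21 and 2 Walls Are Thin 1 genes, together made up 63.4% of it. These shares compare means and take no account of spread. Phvul.009G124100, with the largest share, had 382 ± 293 FPKM in A18 (SD, n = 3). Phvul.009G013400, at 9.98%, overlapped between the genotypes. Levels were uneven within each genotype as well. Averaged over all 6 libraries, 8 of the 152 genes had at least 100 FPKM, 46 had 10 to 100, 44 had 1 to 10 and 54 had less than 1. The 10 most abundant held 48.7% to 53.3% of the summed FPKM in the nts libraries and 58.8% to 65.3% in the A18 libraries.

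**Figure D1:**
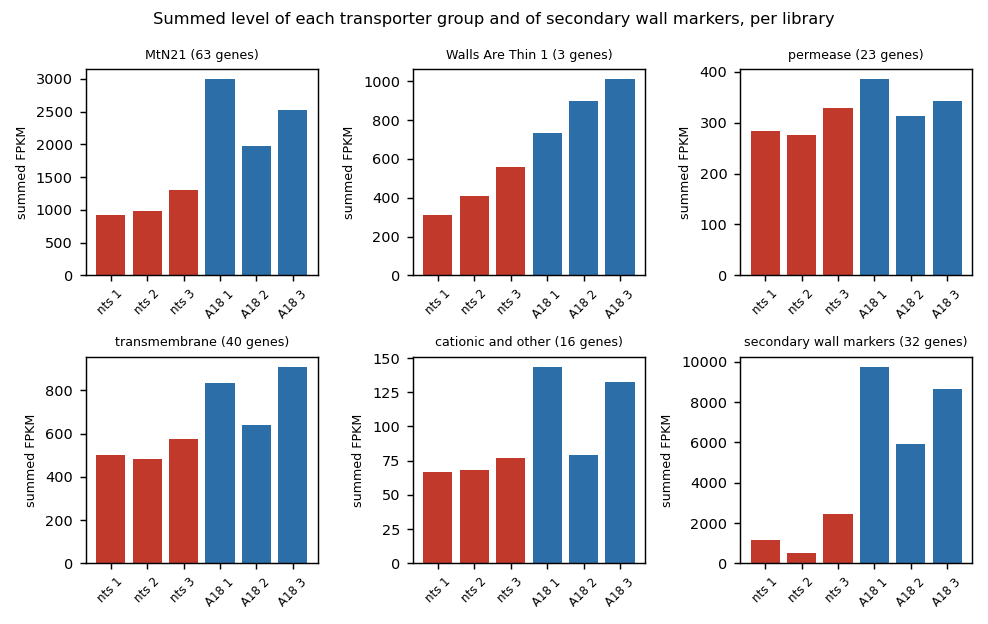
Summed FPKM per library (vertical axes, each starting at 0) of 5 transporter groups and of secondary wall markers, with nts libraries in red on the left and A18 libraries in blue on the right. MtN21 genes sum to 917 to 1299 FPKM in nts and 1971 to 2996 FPKM in A18, whereas permeases sum to 276 to 329 FPKM in nts and 314 to 385 FPKM in A18.

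A total of 20 of the 152 transporters lacked counts in every library, and 110 passed the filter on low counts and were tested. The other 22 had counts in at least 1 library but were too low to test, with means over all libraries of at most 1.72 FPKM. In edgeR's quasi-likelihood test, 1 of the 110 genes was lower in nts at an adjusted p under 0.05, where 0.0615% of all tested genes were, and 0 were higher, where 0.0331% were. In either direction 0.0947% of all tested genes were called. At an unadjusted p under 0.05, 28 of the 110 were lower and 6 were higher, and over all tested genes 2023 were lower and 1773 higher. DESeq2 called 26 of the 110 (23.6%), of which 24 were lower and 2 higher, among 2395 genes in all (11.3% of those tested). The count depended on which libraries were used. It was 0 without nts replicate 1, nts replicate 2, A18 replicate 1 or A18 replicate 3. Without nts replicate 3 it was 7 (5.88% of the transporters tested, where 4.45% of all tested genes were called). Without A18 replicate 2 it was 12 (10.3%, where 4.38% of all tested genes were called). Without both it was 39, of which 37 were lower (34.2%, where 19.9% of all tested genes were called), so calls rose over the whole table as well. Each transporter call given below for 1 left-out library thus came from leaving out nts replicate 3 or A18 replicate 2. These 2 lay between the genotypes in the same data, so such calls are not independent support.

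The study's own thresholds were a log2 change of 2 or more in either direction together with an unadjusted p no higher than 0.05. Past them, 14 of the 110 transporters (12.7%) were lower in nts, where 3.37% of all tested genes were, and 2 (1.82%) were higher, where 2.06% were. Without A18 replicate 2 the lower count was 22 of 117 tested (18.8%), where 3.90% of all tested genes were lower in that fit. In 28 of the 110 genes (25.5%) every nts library had a lower FPKM than every A18 library, which was so for 14.3% of all tested genes. The opposite held for 9 genes (8.18%), where 10.0% of all tested genes did so. The median log2 change, nts minus A18, was -0.33 over the 110 genes and 0.00 over all tested genes, and it was -0.60 without nts replicate 3. Setting the 3 tested genes with 0 counts in every nts library to their lower bounds left the median at -0.33.

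Among the 14 genes lower at the study's thresholds, A18 replicate 2 was the lowest A18 library in 13. It was the lowest in 65 of the 110 tested transporters (59.1%) and in 53.5% of all tested genes. In 10 of the 14, nts replicate 3 was the highest nts library, and in 3 others all nts libraries were at 0. It was the highest in 58 of the 110 tested transporters (52.7%) and in 38.5% of all tested genes.

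**Figure D2:**
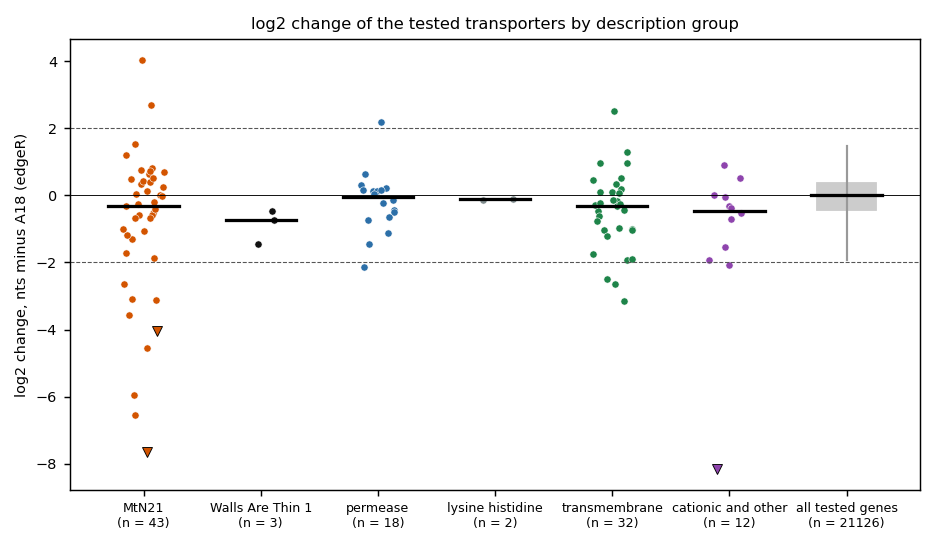
The log2 change, nts minus A18, of each tested transporter by description group, with the median as a bar. Triangles mark 3 genes with 0 counts in all nts libraries, drawn at the bound that 3 counts per library would give. The box and line on the right give the middle 50% and 90% of all 21126 tested genes, and dashed lines mark a log2 change of 2 in size. MtN21 genes hold 8 of the 14 genes lower past the study's thresholds, and the permeases centre on -0.06.

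The MtN21 genes held 8 of the 14 lower genes and 1 of the 2 higher genes among their 43 tested members (18.6% lower), with a median log2 change of -0.33. DESeq2 called 12 of the 43 lower and 1 higher, where it called 11.3% of all tested genes in either direction. The 6 tested genes that carry an amino acid export term had a median log2 change of -4.06, and the 37 without it had a median of -0.25. All 9 export-term genes lie on chromosome 8 from 44623465 to 44937988 or on chromosome 9 from 18834276 to 18992294. As neighbours they may not be independent of each other. Of the 6, 4 (66.7%) were lower past the study's thresholds, and of the 37, 4 (10.8%) were lower and 1 (2.7%) higher. Among all tested genes, 3.37% were lower and 2.06% higher. All 9 export-term genes together summed to 13.9, 20.8 and 55.3 FPKM in nts and 945, 128 and 565 FPKM in A18. The highest nts library stayed under the lowest A18 library, replicate 2, which stood far below the other A18 libraries.

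Phvul.009G124100 was the most abundant of the export-term genes. It lies on chromosome 9 from 18988804 to 18992294, in coordinates as the table gives them, since the genome build is not given in the sources used here. It had 8.95, 12.2 and 23.6 FPKM in nts and 680, 94.1 and 373 FPKM in A18. All nts values lay under all A18 values. The edgeR log2 change was -4.54 ± 0.79 (SE, which restates the test) with an adjusted p of 0.0717, so it was not called. Without A18 replicate 2 its log2 change was -4.96 at an adjusted p of 0.0236 in edgeR, and without nts replicate 3 it was -5.07 at an adjusted p of 0.0474.

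Phvul.008G164200 (chromosome 8, 44934695 to 44937988), also with the export term, had 3.14, 5.09 and 12.9 FPKM in nts and 152, 23.5 and 102 FPKM in A18. The genotypes did not overlap, and the edgeR log2 change was -3.57 ± 0.81 with an adjusted p of 0.106, or -3.99 at 0.0423 without A18 replicate 2. Within each genotype its libraries stood in the same order as those of Phvul.009G124100. Phvul.009G123700 had 0, 0.516 and 1.61 FPKM in nts and 73.6, 9.70 and 60.9 FPKM in A18 (edgeR log2 change -5.95 ± 1.53, adjusted p = 0.131). Phvul.009G124000 had 0.360, 0 and 0.0683 FPKM in nts and 28.4, 0.0707 and 19.7 FPKM in A18 (edgeR log2 change -6.54 ± 2.06, adjusted p = 0.179). In this last gene A18 replicate 2 was as low as the nts libraries, so the genotypes overlapped, and without it the log2 change was -7.09 at an edgeR adjusted p of 0.046.

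The export-term genes did not all lie in that direction. Phvul.008G164000 had 0.392, 1.54 and 10.6 FPKM in nts and 4.01, 0.215 and 3.67 FPKM in A18, with an edgeR log2 change of 0.82 and an adjusted p of 0.793. Phvul.009G123950 had 1.08, 1.48 and 6.47 FPKM in nts and 2.24, 0.331 and 1.74 FPKM in A18, with an edgeR log2 change of 1.2 and an adjusted p of 0.547. Both overlapped between the genotypes, and in both nts replicate 3 was the highest library. Phvul.009G123900, which was too low to test, had 0 counts in all nts libraries, against 4.09, 0 and 3.94 FPKM in A18. The remaining 2, Phvul.008G164100 and Phvul.009G123600, were at 0 throughout.

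Many of these genes lie side by side. With gaps of at most 50 kb, 70 of the 152 genes formed 26 runs of neighbours. On chromosome 9, 6 MtN21 genes lie between 18834276 and 18992294, all with the export term, and 3 of the 4 that were tested were lower past the study's thresholds. A second run of 4 MtN21 genes without that term lies between 20429716 and 20457280, and 2 of its 4 tested genes were lower. Phvul.009G135300 in this second run had 0 counts in every nts library and 16.6, 0.851 and 10.3 FPKM in A18. Against a floor of 3 counts per library its nts level was at least 203-fold below the A18 mean (edgeR adjusted p = 0.0903, or 0.0244 without A18 replicate 2). It had 45 counts in A18 replicate 2, where replicates 1 and 3 had 1239 and 673. Its neighbour Phvul.009G135400 was also at 0 in nts, with 0.339, 0.605 and 1.24 FPKM in A18, at least 16.6-fold lower (edgeR adjusted p = 0.0962). It fell outside the rule for named genes, with a mean under 1 FPKM, and was chosen after its values were seen. The run's other genes, Phvul.009G135500 and Phvul.009G135600, were expressed in every library at 25.3 to 34.7 FPKM in nts and 26.9 to 72.4 FPKM in A18, with edgeR log2 changes of -0.20 and -0.59 (adjusted p = 0.564 and 0.390). Neighbours in a run can be near-identical copies, so how the counting split reads among them is uncertain.

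**Figure D3:**
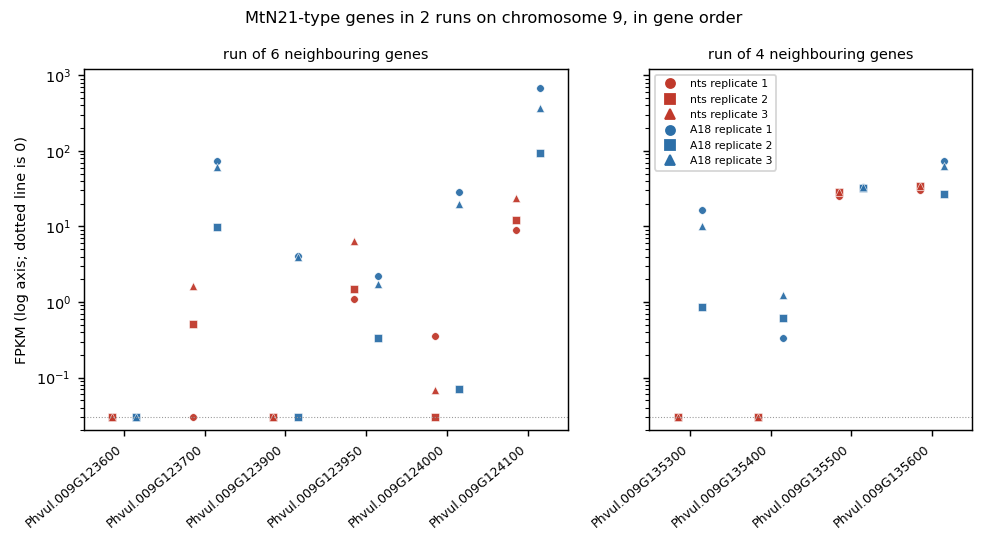
FPKM (log axis, with 0 on the dotted line) of the MtN21 genes of 2 runs on chromosome 9 in gene order, nts libraries in red left of A18 libraries in blue, with a symbol for each replicate. Genes at 0 in nts, such as Phvul.009G135300, stand in the same run as genes such as Phvul.009G135500, which has 25.3 to 28.5 FPKM in nts and 32.6 to 33.5 FPKM in A18.

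Outside the export-term genes, the most abundant MtN21 genes differed from each other. Phvul.003G151700 had the highest level in nts of any MtN21 gene, with 257, 218 and 270 FPKM, against 132, 468 and 364 FPKM in A18. Its genotypes overlapped, and the edgeR log2 change was -0.33 ± 0.49 (adjusted p = 0.773), or 0.17 without A18 replicate 2. Phvul.001G118300 had 101, 134 and 237 FPKM in nts and 335, 541 and 342 FPKM in A18. There the genotypes did not overlap, with an edgeR log2 change of -1.31 ± 0.44 and an adjusted p of 0.193.

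Phvul.011G196900 (chromosome 11, 51067669 to 51071403) had 17.4, 36.7 and 76.0 FPKM in nts and 602, 210 and 407 FPKM in A18. All nts values were lower, with an edgeR log2 change of -3.11 ± 0.64 and an adjusted p of 0.0896. Without nts replicate 3 the log2 change was -3.83, at an edgeR adjusted p of 0.0372. This gene made up 16.1% and Phvul.009G124100 16.3% of the net difference in summed FPKM. Phvul.004G018600 stood lower in the range, with 0.404, 0.662 and 1.64 FPKM in nts and 7.65, 1.5 and 9.68 FPKM in A18 (edgeR log2 change -2.65 ± 0.82, adjusted p = 0.176). The highest nts value passed the lowest A18 value, so its genotypes overlapped.

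In the other direction, Phvul.006G210300 (chromosome 6, 30433737 to 30435669) had 8.99, 1.68 and 12.1 FPKM in nts and 0.738, 0.386 and 0.344 FPKM in A18. Every nts library was above every A18 library, and the edgeR log2 change of 4.04 ± 0.81 had an adjusted p of 0.0868. It was the only MtN21 gene higher past the study's thresholds. Of the MtN21 genes not named by the rule, Phvul.001G170400 had the smallest p, with 46.6, 70.6 and 47.1 FPKM in nts and 249, 137 and 193 FPKM in A18. Its edgeR log2 change was -1.73 ± 0.27 with an adjusted p of 0.0644, and its genotypes did not overlap.

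**Figure D4:**
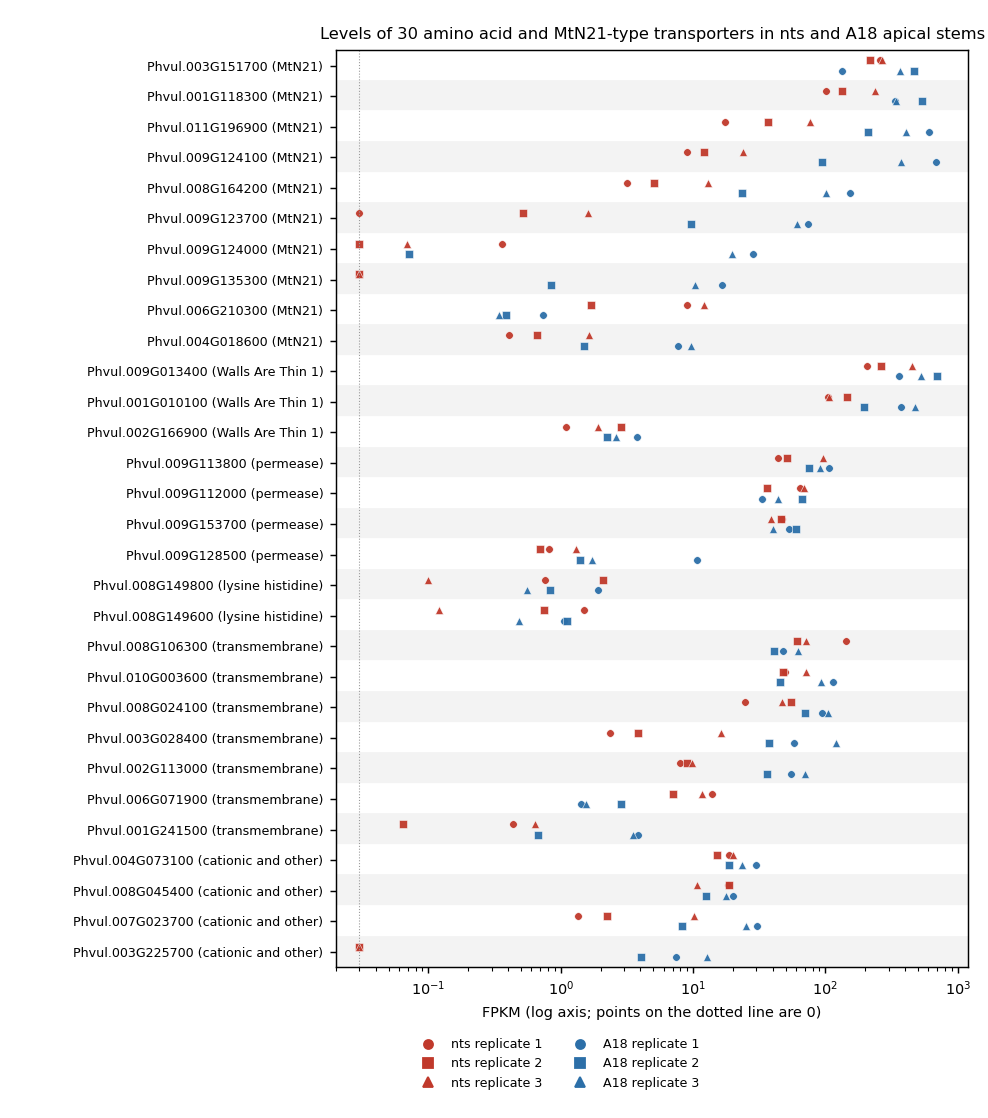
FPKM (log axis, with 0 on the dotted line) in each library for the 30 transporters named by rule, nts libraries in red just above A18 libraries in blue, with a symbol for each replicate. In Phvul.002G113000 the 3 nts libraries lie close together at 7.98 to 9.79 FPKM, under A18 at 36.3 to 70.0 FPKM, while most other lower genes spread more widely within a genotype.

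All 3 Walls Are Thin 1 genes had a negative log2 change, with a median of -0.74. In edgeR, 0 of them were past the study's thresholds, 1 had an unadjusted p under 0.05, and DESeq2 called 1. Phvul.009G013400 (chromosome 9, 2182009 to 2185337) had 206, 262 and 449 FPKM in nts and 361, 701 and 531 FPKM in A18. It was the most abundant of the 152 genes, its genotypes overlapped, and the edgeR log2 change was -0.74 ± 0.44 (adjusted p = 0.428). Phvul.001G010100 (chromosome 1, 787874 to 791446) had 104, 146 and 106 FPKM in nts and 369, 197 and 477 FPKM in A18. Here the nts libraries were all lower, with an edgeR log2 change of -1.45 ± 0.33 and an adjusted p of 0.106, or -1.67 at 0.0376 without A18 replicate 2. The other leave-one-out fits gave -1.59 to -1.18, at edgeR adjusted p values of 0.105 to 0.362. Phvul.002G166900 was expressed at 1.10, 2.84 and 1.92 FPKM in nts and 3.74, 2.23 and 2.62 FPKM in A18, which overlapped (edgeR log2 change -0.47 ± 0.45, adjusted p = 0.640).

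The amino acid permeases lay on both sides of 0. The 18 tested had a median log2 change of -0.06, with 9 negative and 9 positive. Phvul.009G113800, a permease 6, had 43.8, 51.0 and 95.3 FPKM in nts and 106, 75.6 and 91.7 FPKM in A18 (edgeR log2 change -0.43 ± 0.34, adjusted p = 0.557). Phvul.009G112000, a permease 8, had 64.0, 36.3 and 68.9 FPKM in nts and 33.1, 66.0 and 43.5 FPKM in A18 (edgeR log2 change 0.30 ± 0.40, adjusted p = 0.735). Phvul.009G153700, a permease 2, had 47.1, 46.0 and 38.6 FPKM in nts and 53.3, 59.7 and 39.8 FPKM in A18 (edgeR log2 change -0.15 ± 0.24, adjusted p = 0.780), with a log2 change of 0.09 without A18 replicate 2. In Arabidopsis these permeases serve transfer between xylem and phloem and the loading of seeds and phloem, and in the bean stems the genotypes overlapped for all 3.

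Phvul.009G128500, a permease 3, was the only permease lower past the study's thresholds. It had 0.815, 0.703 and 1.31 FPKM in nts and 10.7, 1.40 and 1.72 FPKM in A18. The genotypes did not overlap, but A18 replicates 2 and 3 stood just above the nts libraries, and the edgeR log2 change was -2.15 ± 0.84 (adjusted p = 0.252). The 5 family proteins with a polyamine transport term had a median log2 change of 0.12, and 0 of them separated the genotypes. Phvul.008G282800, a permease 7 named after its values were seen, had 3.57, 6.43 and 10.1 FPKM in nts and 16.4, 18.9 and 23.0 FPKM in A18. These did not overlap, and the edgeR log2 change was -1.45 ± 0.40 with an adjusted p of 0.146.

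Of the 7 lysine histidine transporters, 4 were at 0 in all libraries and 2 were tested. Phvul.008G149800 had 0.766, 2.08 and 0.0988 FPKM in nts and 1.9, 0.832 and 0.558 FPKM in A18. Phvul.008G149600 had 1.49, 0.747 and 0.121 FPKM in nts and 1.07, 1.12 and 0.480 FPKM in A18. Both overlapped, at edgeR log2 changes of -0.10 ± 1.0 and -0.13 ± 0.90 (adjusted p = 0.975 and 0.963), and with errors this wide a difference of 2-fold in either direction was not detectable. Their signs turned with the libraries left out, at 0.43 and 0.38 without nts replicate 3, for example.

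The transmembrane amino acid transporters held the 1 transporter called over all genes. Phvul.002G113000 (chromosome 2, 24255309 to 24259013) had 7.98, 9.01 and 9.79 FPKM in nts and 54.7, 36.3 and 70.0 FPKM in A18. The genotypes were far apart and the nts libraries nearly equal. It fell in nts with an edgeR log2 change of -2.49 ± 0.25 and an adjusted p of 0.0397. The call was lost when nts replicate 1, nts replicate 2, A18 replicate 1 or A18 replicate 3 was left out, with adjusted p values of 0.198, 0.141, 0.151 and 0.139 in edgeR, while the log2 change stayed between -2.28 and -2.63 over all leave-one-out fits.

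This group had genes on either side, with 3 of the 32 tested genes (9.38%) lower and 1 (3.1%) higher past the study's thresholds. Among all tested genes, 3.37% were lower and 2.06% higher. The median log2 change of the group was -0.32. Phvul.003G028400 had 2.35, 3.82 and 16.3 FPKM in nts and 58.0, 37.3 and 120 FPKM in A18. Its genotypes did not overlap (edgeR log2 change -3.14 ± 0.85, adjusted p = 0.142). Without nts replicate 3 the log2 change was -4.46, at an edgeR adjusted p of 0.0314. The other leave-one-out fits gave -3.40 to -2.58, at edgeR adjusted p values of 0.105 to 0.369. Phvul.001G241500 had 0.434, 0.0648 and 0.641 FPKM in nts and 3.85, 0.670 and 3.54 FPKM in A18 (edgeR log2 change -2.66 ± 0.96, adjusted p = 0.220), with A18 replicate 2 just above the nts libraries. Phvul.006G071900 (chromosome 6, 18436939 to 18441532) had 13.8, 7.07 and 11.6 FPKM in nts and 1.43, 2.84 and 1.55 FPKM in A18. All nts values were higher, with an edgeR log2 change of 2.52 ± 0.46 and an adjusted p of 0.0759. Without A18 replicate 2 the log2 change was 3.03 at an edgeR adjusted p of 0.0302. The other leave-one-out fits gave 2.31 to 2.78, at edgeR adjusted p values of 0.0611 to 0.271.

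The most abundant gene of this group, Phvul.008G106300, had 142, 61.1 and 71.3 FPKM in nts and 48.2, 40.7 and 61.8 FPKM in A18. The genotypes overlapped by a narrow margin, and the edgeR log2 change was 0.96 ± 0.36 (adjusted p = 0.242). Phvul.010G003600 had 49.8, 47.6 and 71.3 FPKM in nts and 114, 45.3 and 92.9 FPKM in A18, which overlapped (edgeR log2 change -0.47 ± 0.34, adjusted p = 0.525). Phvul.008G024100 had 24.6, 54.8 and 46.9 FPKM in nts and 93.7, 70.6 and 104 FPKM in A18, with no overlap (edgeR log2 change -1.0 ± 0.32, adjusted p = 0.179). In 11 of the 32 tested genes (34.4%) every nts library was under every A18 library, where 14.3% of all tested genes were. In 3 (9.38%) every nts library was above, near the 10.0% of all tested genes.

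Cationic amino acid transporters carry arginine, lysine and related amino acids in Arabidopsis. With the bidirectional and other transporters, 2 of 12 tested genes (16.7%) were lower past the study's thresholds and 0 were higher. Among all tested genes, 3.37% were lower and 2.06% higher. The median log2 change of the 12 was -0.46. Phvul.003G225700, a cationic amino acid transporter 6 (chromosome 3, 45650830 to 45654848), had 0 counts in all 3 nts libraries and 7.38, 4.07 and 12.6 FPKM in A18. Against a floor of 3 counts per library it was at least 287-fold lower in nts, with an edgeR adjusted p of 0.0541. That lay just above the threshold, and the gene was called at an adjusted p of 0.0477 when low genes were not filtered out, at 0.0228 without nts replicate 3 and at 0.0248 without A18 replicate 2.

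Phvul.007G023700, a cationic amino acid transporter 7, had 1.35, 2.22 and 10.2 FPKM in nts and 30.3, 8.27 and 24.9 FPKM in A18. The genotypes overlapped, since nts replicate 3 passed A18 replicate 2 (edgeR log2 change -2.06 ± 0.85, adjusted p = 0.274). Without nts replicate 3 the log2 change was -3.47, at an edgeR adjusted p of 0.0456. Without nts replicate 1 or nts replicate 2 it was -1.61 or -1.71, at edgeR adjusted p values of 0.532 and 0.513. The more abundant transporters of this kind stood close together in the genotypes. Phvul.004G073100, a cationic amino acid transporter 2, had 18.7, 15.05 and 20.1 FPKM in nts and 30.1, 18.6 and 23.2 FPKM in A18 (edgeR log2 change -0.32 ± 0.21, adjusted p = 0.485). Phvul.008G045400, a cationic amino acid transporter 9, had 18.2, 18.6 and 10.7 FPKM in nts and 19.9, 12.4 and 17.8 FPKM in A18, with an edgeR log2 change of 0.01 ± 0.26 and an adjusted p of 0.992. Its sign turned with other scalings and left-out libraries, at -0.08 without A18 replicate 2, for example. Both overlapped between the genotypes.

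**Figure D5:**
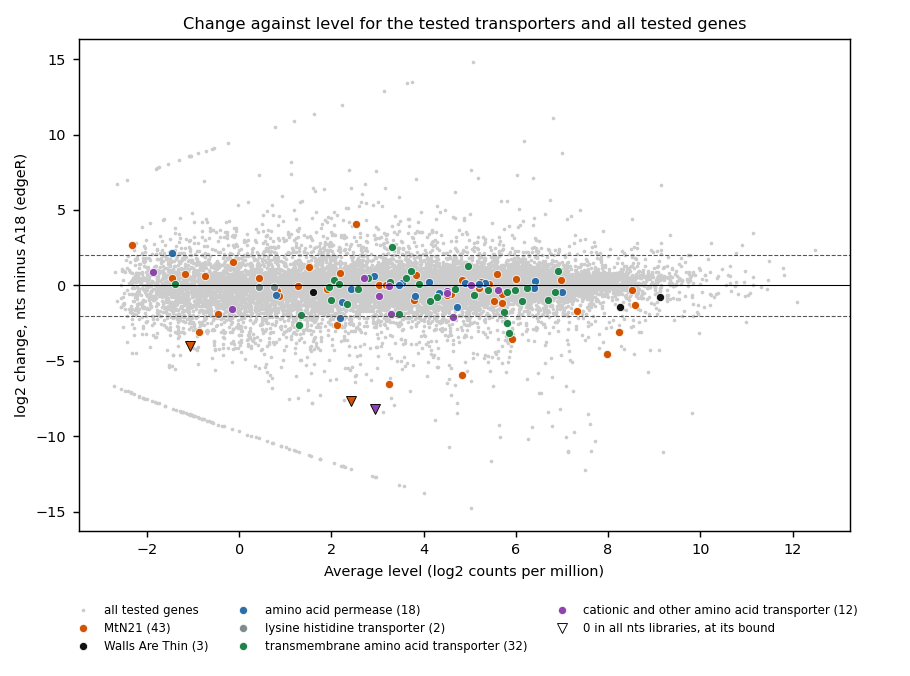
The edgeR log2 change, nts minus A18, against the average level in log2 CPM for the 110 tested transporters (coloured by group) and all 21126 tested genes (grey). Triangles are the 3 transporters at 0 in all nts libraries, drawn at their bounds, and grey points are drawn at their fitted values. Lower transporters include abundant ones such as Phvul.009G124100 at -4.54, while the 2 past the study's thresholds on the higher side, at 4.04 and 2.52, are of low to middle level.

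Among all 152 genes, 20 (13.2%) had 0 counts in every nts library and counts in A18, which was so for 3.24% of all genes in the table. The opposite held for 2 (1.32%), and for 1.81% of all genes. Of the 20, only 3 passed the filter on low counts, all named above. Several others were near the floor, such as Phvul.005G001700, with 4 counts in A18 replicate 1 only, and Phvul.006G071700, with 4 in A18 replicate 2 only. Some, such as Phvul.007G158600, were also at 0 in A18 replicate 2. The share of all genes was counted in the same way, with no minimum of counts in A18. Phvul.005G015900, an MtN21 gene too low to test, had 0 counts in nts and 4.51, 0.0857 and 5.73 FPKM in A18. Its nts level was at least 80.8-fold below the A18 mean. That bound rests on A18 replicates 1 and 3, at 359 and 400 counts, as replicate 2 had 5. This gene was chosen after its values were seen.

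Other carriers and enzymes of nitrogen and auxin were read from the same fit, where 3.37% of all tested genes were lower and 2.06% higher past the study's thresholds. Of 31 tested nitrate and peptide transporters, 0 were lower and 3 were higher past the study's thresholds, with a median log2 change of -0.24. Nitrate transporter 1.1 (Phvul.003G218500) had 37.2, 48.5 and 15.5 FPKM in nts and 0.331, 9.33 and 0.923 FPKM in A18 (edgeR log2 change 3.21 ± 1.27, adjusted p = 0.255). Oligopeptide transporter 1 (Phvul.008G280400) had 5.05, 7.89 and 0.722 FPKM in nts and 1.02, 0.328 and 0.641 FPKM in A18 (edgeR log2 change 2.86 ± 0.86, adjusted p = 0.167). The nitrate transporter separated the genotypes and the oligopeptide transporter did not.

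Of 3 tested ammonium transporters, 1 was lower and 0 were higher. Ammonium transporter 1;1 (Phvul.007G231700) had 2.90, 3.85 and 3.83 FPKM in nts and 29.5, 9.14 and 23.9 FPKM in A18 with no overlap (edgeR log2 change -2.45 ± 0.41, adjusted p = 0.0663). Ureides carry nitrogen from bean nodules, and 0 of the 5 tested ureide genes and 0 of the 9 tested nitrogen assimilation genes passed the thresholds in either direction, at median log2 changes of -0.93 and 0.21. At an unadjusted p under 0.05 in edgeR, 3 of the 5 and 3 of the 9 were lower, and DESeq2 called 1 and 2 of them. The words for the assimilation list also took in N-acetyl-l-glutamate synthase 1, a different enzyme from glutamate synthase. Phvul.002G010200, among the lower genes (edgeR unadjusted p = 0.00825), and Phvul.003G234400 have that description. Among 19 tested auxin carriers 1 was lower and 1 higher, and their median was 0.35. Phvul.002G117700, an auxin efflux carrier, had 0.144, 0.125 and 1.27 FPKM in nts and 22.0, 6.73 and 10.8 FPKM in A18 (edgeR log2 change -4.54 ± 1.07, adjusted p = 0.111). Phvul.003G032500, of the same description, had 71.3, 39.3 and 77.3 FPKM in nts and 17.5, 20.5 and 10.2 FPKM in A18 (edgeR log2 change 2.03 ± 0.41, adjusted p = 0.0867). The 2 efflux carriers thus stood on opposite sides, each without overlap. Over these 5 lists edgeR called 0 of 67 tested genes, 20 had an unadjusted p under 0.05, and DESeq2 called 12. Of all tested genes DESeq2 called 11.3%. In edgeR, 3796 of all 21126 tested genes had an unadjusted p under 0.05, of which 2023 were lower in nts.

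In summed level, secondary wall markers stood lower in nts, as the summed transporters did, and epidermis and cuticle markers stood higher. Of 32 secondary wall markers of xylem and fibres, 30 were tested and 22 were lower past the study's thresholds, with a median log2 change of -4.92. Their summed level was 1155, 503 and 2455 FPKM in nts and 9737, 5918 and 8662 FPKM in A18, and 0 of the 32 were at 0 in all libraries. As with the summed transporters, nts replicate 3 was the highest nts library and A18 replicate 2 the lowest A18 library. Epidermis and cuticle markers summed to 8912, 12318 and 4893 FPKM in nts and 1984, 2765 and 962 FPKM in A18. Of these 25 markers 3 were at 0 in all libraries, and of the 22 tested 2 (9.09%) were lower and 3 (13.6%) higher, with a median log2 change of 0.44. In 31.8% of the 22 every nts library was above all A18, and in 9.09% below. Of the 30 tested secondary wall markers, 76.7% were below in this way and 0 above. The part of either marker list in the transporter differences was not tested.

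The summed levels of the other marker lists overlapped between the genotypes. Phloem markers, of which 1 of 19 was lower past the study's thresholds, summed to 870 to 997 FPKM in nts and 808 to 1208 FPKM in A18. Green tissue markers, of which 0 of 67 tested passed them, summed to 27432 to 29726 FPKM in nts and 15567 to 29450 FPKM in A18. The lowest of all 6 libraries for these markers was A18 replicate 2. Flower markers, with 3 of 26 tested lower and 1 higher, summed to 576 to 862 FPKM in nts and 711 to 920 FPKM in A18. The seed list was found by the words seed storage 2S albumin and RmlC-like cupins superfamily. These words name whole superfamilies, so the list may hold many genes that are not seed genes, and its level is no measure of seed tissue. With 10 of 59 tested lower and 4 higher, it summed to 5260 to 6321 FPKM in nts and 5177 to 7427 FPKM in A18. In the meristem list, 2 of 16 tested were lower and 1 was higher. Of phloem, green tissue, flower, seed and meristem genes tested, every nts library was below all A18 in 31.6%, 1.49%, 19.2%, 28.8% and 37.5%. In the same order, every nts library was above all A18 in 10.5%, 22.4%, 3.85%, 10.2% and 12.5%. Over all tested genes the shares were 14.3% below and 10.0% above, and 3.37% were lower and 2.06% higher past the study's thresholds.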

How the data were processed

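RNA of the apical stems of 3 nts and 3 A18 samples was sequenced. Per the submitters' processing notes, cutadapt 1.9 and FastQC were among the tools. Which aligner, counting tool, strand setting, genome build and annotation served is not given in the sources used here. The authors deposited raw counts per gene, as the file headers name them, and these were used unchanged. FPKM values were likewise deposited, per the file headers, and their floor of 0.0001 for genes without counts was set to 0. Of 27012 genes, 3673 had 0 counts in all 6 libraries.

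Genotypes were compared by the robust quasi-likelihood F test of edgeR 4.0.16 in R 4.3.3 after filterByExpr (TMM factors of 0.957 to 1.06), with no term beside genotype and with Benjamini-Hochberg adjustment over all 21126 genes tested. All log2 changes are nts minus A18. Standard errors printed with them were obtained by dividing the change by the root of its F statistic, so they restate the test. Folds against 0 counts are bounds for the A18 mean against 3 counts per library and cover counting error only. They are not bounds for each A18 library. Replicates differed beyond sampling noise (chi-square per gene of 128 to 421), so none was counted as a duplicate. Alternatives used DESeq2 1.42.0, limma 3.58.1 on log2(FPKM + 1) and log2(FPKM + 0.1), other scalings and filters, a replicate block and left-out libraries. The fit was tested on simulated data.

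Named members are those called, those past the study's thresholds with a mean of at least 1 FPKM in the higher genotype, and the 3 most abundant of each group, up to a maximum of 30 of the 31 that qualified. Other gene and marker lists were defined by description words. Members and lists were chosen with earlier results of these data known. No sequences are printed, as the reference table used here shares no identifiers with the deposited genes.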

Additional observations from a re-analysis of the deposited data

How the results depend on the processing

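Over the 15 alternatives, the 30 named transporters gave 450 values, of which 374 kept their direction and their side of the threshold, 51 newly passed it, 5 no longer did and 20 changed sign. The count of called genes, 20 over all genes and 1 transporter, was 2395 and 26 with DESeq2, 37 and 2 without a filter on low counts, 438 and 6 with limma on log2(FPKM + 1), and 450 and 5 with a pseudocount of 0.1. Without both nts replicate 3 and A18 replicate 2 the counts were 4267 and 39, and leaving out each library in turn gave 0 to 964 and 0 to 12. With the replicate block both were 0. The numbers gave no sign of pairing the samples, as deviations of samples with the same number correlated at -0.02, -0.13 and 0.04 across genes. Those with different numbers correlated at -0.15 to 0.11. With deviations taken from 3 libraries per genotype, this check cannot exclude pairing.

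Transporters lower past the study's thresholds numbered 14, and 22 without both in-between libraries, with 13 to 22 when each was left out in turn. The higher count of 2 was 1 with limma on log2(FPKM + 1). The median log2 change of -0.33 ranged from -0.60 to -0.24 when each library was left out in turn, and was -0.63 without both. The neighbouring lists' count of 6 past the thresholds was 10 without both, 3 with limma on log2(FPKM + 1) and 4 to 9 when each library was left out in turn.

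The sign changes were in 5 genes with edgeR adjusted p values from 0.773 to 0.992. Phvul.008G045400, at 0.01, was -0.0030 with both RLE size factors and DESeq2, -0.0045 with upper-quartile factors, -0.016 with the replicate block, -0.09 to 0.21 when each library was left out in turn, and -0.087 and -0.093 with limma at pseudocounts of 1 and 0.1. Leaving out each library in turn gave -0.72 to 0.17 for Phvul.003G151700, -0.33 to 0.09 for Phvul.009G153700, -0.97 to 0.38 for Phvul.008G149600 and -1.20 to 0.47 for Phvul.008G149800, and leaving out both gave 0.03, 0.11, 0.64 and 0.29 in the same order. The causes were not tested. Depth limits the lowest genes: 54 of the 152 averaged under 1 FPKM.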

Other observations

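Glutamine dumpers, proline transporters and EamA-like proteins without the MtN21 name were chosen after their values were seen. Glutamine dumpers are small membrane proteins that raise amino acid export when overexpressed in Arabidopsis. Of 5 tested, 1 was lower past the study's thresholds, where 3.37% of all tested genes were, and the median log2 change was -0.45. Glutamine dumper 3 (Phvul.003G149300) had 25.1, 51.3 and 54.0 FPKM in nts and 235, 136 and 215 FPKM in A18, without overlap (edgeR log2 change -2.07 ± 0.34, adjusted p = 0.0663). The other 4 overlapped between the genotypes.

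In all 3 proline transporter 1 genes, which belong to the same superfamily as the amino acid permeases, every nts library was under every A18 library. That was so for 14.3% of all tested genes. Phvul.008G227600 had 15.6, 39.96 and 22.2 FPKM in nts and 98.4, 47.7 and 94.9 FPKM in A18 (edgeR log2 change -1.54 ± 0.40, adjusted p = 0.132). The most abundant, Phvul.001G239300, had 100, 116 and 164 FPKM in nts and 180, 208 and 194 FPKM in A18 (edgeR log2 change -0.54 ± 0.27, adjusted p = 0.362). Phvul.003G206600 was near 0 in nts, with at most 0.0518 FPKM, against 0.156 to 0.625 FPKM in A18. The 4 tested EamA-like genes had a median log2 change of -0.01, with 2 negative and 2 positive. Phvul.009G124700 had 81.5, 85.5 and 79.7 FPKM in nts and 243, 117 and 173 FPKM in A18 (edgeR log2 change -1.01 ± 0.26, adjusted p = 0.125), and 1 other lay above A18 in every nts library.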
